A study of Mus musculus with 960 samples.

Results

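The genes examined here encode the subunits of the mitochondrial respiratory chain and ATP synthase. They are the protein-coding genes of the GENCODE M1 annotation whose symbols begin with Nduf, Sdha to Sdhd, Uqcr, Cox followed by 4 to 8, or Atp5. The rule took 92 of 22350 protein-coding genes on the autosomes and X, and it used names only. Of these, 75 encode common subunits (Ndufa4 included), 8 encode tissue isoforms or paralogues that replace a common subunit, and 9 match by name without encoding a subunit of these complexes. Chromatin accessibility was read by Pi-ATAC, in which cells are fixed, stained with antibodies, treated with Tn5 transposase and index sorted into wells. The cells came from a mammary tumour of the MMTV-PyMT mouse, in which a mammary tumour virus promoter drives polyoma middle T antigen in mammary epithelium, with mice killed at 3 months of age. No untransformed tissue was analysed here. Of 960 wells on 10 plates, those of 8 plates were stained for EpCAM and HIF1α and those of 2 plates for EpCAM and CD45. EpCAM marks epithelial cells, CD45 marks leukocytes, and HIF1α is a transcription factor subunit that is stabilised when oxygen is low.

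The deposited result is 1 list of 50000 windows of 500 bp, each centred on a peak summit called on pooled cells. It holds positions only, so a gene either has a window or has none, and a gene without a window may be accessible below the limit of the list. With 1 pooled list there are no replicates and no test between conditions, fewer cells with an open site and less accessibility per cell cannot be told apart, and the depth behind a window is unknown. Intervals given with shares are exact Clopper-Pearson 95% intervals and cover counting error only. The list has windows within 1 kb of a start site at 4 of 4 epithelial marker genes (Epcam, Krt8, Krt18, Cdh1), at 0 of 3 immune ones (Ptprc, Cd3e, Lyz2), at 0 of 2 fibroblast ones (Col1a1, Col3a1) and at 0 of 2 endothelial ones (Pecam1, Cdh5, with 5 windows inside Pecam1). Small marker lists of this kind give wide intervals, from 0% to 70.8% for the immune list.

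Complex I takes electrons from NADH and complex II takes them from succinate, as part of the citrate cycle. Both hand them to ubiquinone, complex III passes them on to cytochrome c, and complex IV, cytochrome c oxidase, gives them to oxygen. Complexes I, III and IV pump protons, and complex V, ATP synthase, uses the returning protons to make ATP. Most subunits are nuclear genes transcribed in nearly every cell, from promoters that are often rich in CpG dinucleotides and carry sites for NRF1, GABP (an ETS factor), YY1 and oestrogen-related receptors (ERR). A few subunits of complex IV have a relative that replaces them in muscle, testis or lung. HIF1 is known to change the chain at low oxygen through some of these relatives, with Ndufa4l2 as a well-known HIF1 target.

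The DNA just upstream of the start sites gives the CpG content of tissue isoforms and their partners. The 200 bases before the outermost annotated start site are printed for the muscle isoforms and Ndufa4l2, each above its partner, in the direction of transcription on mm9, with each CpG in capitals. None of these 8 stretches overlaps an annotated exon.
Cox6a2 (chr7:135349881-135350080, minus strand): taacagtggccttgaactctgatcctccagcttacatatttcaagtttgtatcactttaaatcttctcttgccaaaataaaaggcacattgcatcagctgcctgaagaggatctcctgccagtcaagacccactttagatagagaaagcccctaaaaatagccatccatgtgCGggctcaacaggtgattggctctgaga
Cox6a1 (chr5:115798991-115799190, minus strand): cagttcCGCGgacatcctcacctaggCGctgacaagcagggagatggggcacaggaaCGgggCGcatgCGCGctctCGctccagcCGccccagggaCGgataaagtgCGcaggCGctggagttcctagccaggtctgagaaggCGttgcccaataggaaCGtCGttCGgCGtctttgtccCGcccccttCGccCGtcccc
Cox7a1 (chr7:30968990-30969189, plus strand): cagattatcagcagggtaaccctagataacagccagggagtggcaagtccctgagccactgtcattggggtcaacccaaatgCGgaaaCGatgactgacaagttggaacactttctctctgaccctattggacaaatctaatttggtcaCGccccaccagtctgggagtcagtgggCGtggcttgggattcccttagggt
Cox7a2 (chr9:79607661-79607860, minus strand): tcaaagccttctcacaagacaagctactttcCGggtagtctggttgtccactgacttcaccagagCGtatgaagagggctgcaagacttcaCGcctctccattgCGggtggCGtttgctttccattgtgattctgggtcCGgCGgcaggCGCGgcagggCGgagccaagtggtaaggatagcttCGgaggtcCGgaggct
Cox8b (chr7:148086346-148086545, minus strand): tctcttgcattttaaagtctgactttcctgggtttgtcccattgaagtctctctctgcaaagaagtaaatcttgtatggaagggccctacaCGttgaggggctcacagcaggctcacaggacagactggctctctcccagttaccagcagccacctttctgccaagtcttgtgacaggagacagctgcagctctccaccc
Cox8a (chr19:7292107-7292306, minus strand): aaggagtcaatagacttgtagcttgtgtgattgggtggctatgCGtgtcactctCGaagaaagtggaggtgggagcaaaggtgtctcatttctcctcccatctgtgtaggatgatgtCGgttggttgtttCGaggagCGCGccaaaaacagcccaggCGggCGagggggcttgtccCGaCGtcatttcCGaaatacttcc
Ndufa4l2 (chr10:126951795-126951994, plus strand): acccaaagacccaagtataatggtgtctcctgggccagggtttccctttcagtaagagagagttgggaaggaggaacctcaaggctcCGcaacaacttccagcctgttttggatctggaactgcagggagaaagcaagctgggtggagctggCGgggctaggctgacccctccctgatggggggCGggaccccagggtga
Ndufa4 (chr6:11857447-11857646, minus strand): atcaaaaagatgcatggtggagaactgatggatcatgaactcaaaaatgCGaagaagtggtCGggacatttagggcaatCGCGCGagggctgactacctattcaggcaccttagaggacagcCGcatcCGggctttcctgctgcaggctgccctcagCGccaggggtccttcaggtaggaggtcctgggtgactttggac
The Cox6a2 stretch holds 1 CpG, against 20 in the Cox6a1 stretch. The Cox8b stretch likewise holds 1, against 11 for Cox8a, and Cox7a1 holds 4, against 12 for Cox7a2. Ndufa4l2 holds 3 and Ndufa4 holds 8. GC content separates the pairs less, with 44.0% in Cox6a2 against 66.0% in Cox6a1 but 58.5% in Ndufa4l2 against 55.0% in Ndufa4. Among the isoforms not printed, Cox7b2 turned the order round. It held 8 CpG in its 200 bases, against 5 for Cox7b, Cox6b2 held 8, against 10 for Cox6b1, and Cox8c held 7, against 11 for Cox8a. Cox4i2 held 14 with a GC content of 66.0%, against 30 and 75.0% for Cox4i1.

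Many members share their promoter with a gene on the other strand, so that a window between the start sites cannot be assigned to either gene. The stretch between the closest head-to-head start sites is printed for 4 such members, read in the direction of the member, with matches to the motifs named further on in capitals (ETS and SP/KLF in Cox4i1, ETS in Sdhd and Ndufb9, NRF1 in Ndufa11). None of the 4 overlaps an annotated exon.
Cox4i1 and Cox4nb (chr8:123192013-123192189, plus strand): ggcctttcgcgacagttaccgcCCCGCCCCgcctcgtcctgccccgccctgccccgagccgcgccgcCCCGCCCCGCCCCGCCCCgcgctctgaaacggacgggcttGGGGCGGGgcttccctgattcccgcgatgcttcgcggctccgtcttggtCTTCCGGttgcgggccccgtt
Sdhd and Timm8b (chr9:50411955-50412005, minus strand): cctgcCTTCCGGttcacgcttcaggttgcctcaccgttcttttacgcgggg
Ndufa11 and Vmac (chr17:56857123-56857184, plus strand): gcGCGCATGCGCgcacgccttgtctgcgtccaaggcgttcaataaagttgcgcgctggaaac
Ndufb9 and Tatdn1 (chr15:58765286-58765364, plus strand): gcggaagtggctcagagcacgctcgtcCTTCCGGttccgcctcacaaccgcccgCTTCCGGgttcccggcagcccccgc
The Cox4i1 stretch holds 27 CpG and lies within 1 window. The Sdhd stretch is 51 bases long and holds 5. Cox4nb, the neighbour of Cox4i1, matches the symbol rule although it encodes a subunit of the endoplasmic reticulum membrane complex and no part of cytochrome oxidase. Timm8b, beside Sdhd, encodes a chaperone of mitochondrial protein import.

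A start site had at least 1 window within 1 kb at 77 of the 92 members (83.7%, interval 74.5% to 90.6%). Over all protein-coding genes the share was 52.9% (11819 of 22350). Among the 75 common subunits 70 had a window (93.3%, interval 85.1% to 97.8%), among the 8 tissue isoforms 1 had (12.5%, interval 0.316% to 52.7%), and among the 9 genes that encode no subunit 6 had. For called peaks that kept 2 or more summits in the list, the share at members was not above that of all genes. Windows of such peaks lay within 1 kb of a start site at 17 members (18.5%), against 22.1% of all genes. No interval was computed for this share, so no order is read from it.

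**Figure D1:**
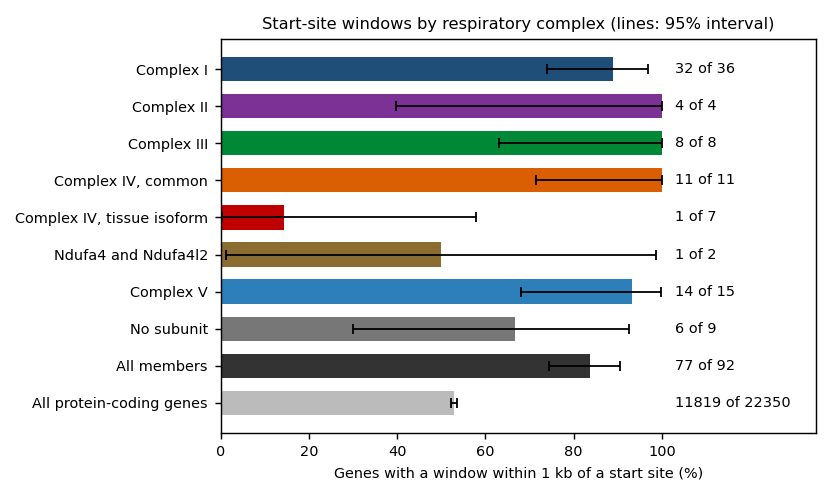
Share of genes that have a start-site window, within 1 kb (x axis, percent), for each class of member (rows), for all members and for all protein-coding genes. Bars give the share, black lines the exact 95% interval and the text at the right the counts; the 7 tissue isoforms of complex IV stand below every other class, at 1 of 7.

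In complex I, 32 of 36 subunit genes had a window (88.9%, interval 73.9% to 96.9%). The 7 core subunits, which carry the NADH site, most iron-sulphur clusters and the quinone site, had a window in 5 cases. Ndufv1, which binds FMN and oxidises NADH, had its summit 6 bp downstream of a start site. The summits of Ndufs1, Ndufs3 and Ndufv2 lay at -39, 43 and -69 bp, where negative values are upstream. Ndufs7 and Ndufs8, core subunits with iron-sulphur clusters close to the quinone site, had none.

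Of the 29 accessory subunits of complex I, 27 had a window. A single window marked 19 of them: Ndufa2, Ndufa3, Ndufa5, Ndufa8, Ndufa9, Ndufa10, Ndufa12, the acyl carrier protein Ndufab1, Ndufb2, Ndufb4, Ndufb6, Ndufb7, Ndufb8, Ndufb9, Ndufb10, Ndufc1, Ndufs5, Ndufs6 and Ndufv3. Their closest summits lay between -161 bp (Ndufb9) and 100 bp (Ndufa8). Ndufa7, Ndufa11, Ndufa13, Ndufb3, Ndufc2 and Ndufs4 had 2 windows each. Ndufa1, an X-linked membrane-arm subunit needed for assembly, had 3 windows with summits at -0.033, -0.614 and -1.006 kb, each from a called peak of its own. Rnf113a1 starts 0.082 kb upstream on the other strand, and the summits at -0.614 and -1.006 kb lie beyond that start. Ndufb11, also X-linked, had 3 windows at -0.083, 0.157 and 0.463 kb that all came from 1 called peak. Ndufa6 and Ndufb5 had none.

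All 4 genes of complex II, which is both a respiratory complex and a citrate cycle enzyme, had a window. Sdha, the flavoprotein that oxidises succinate, had 2 windows of 1 called peak, at 0.009 and 0.366 kb. Sdhb, the iron-sulphur subunit, had 1 at 48 bp (chr4:140516916-140517415). The membrane anchors Sdhc and Sdhd had 1 each, at -20 bp (chr1:173080504-173081003) and -99 bp (chr9:50411803-50412302). Sdhb and Sdhc each held 1 further window inside the gene. Sdha and Sdhd are head to head with Ccdc127 and Timm8b at 0.029 and 0.052 kb.

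All 8 complex III genes had a window. Uqcrc1 and Uqcrc2, the core proteins, had summits at -15 and 26 bp, and Uqcrfs1, the Rieske iron-sulphur protein, at -52 bp. The small subunits Uqcr11, Uqcrb and Uqcrq had 1 window each at -0.015, 0.144 and -0.254 kb, and Uqcr10 had 2 at 0.077 and -0.237 kb. Uqcrh, the hinge protein beside cytochrome c1, had 5 windows, as many as any member, at -1.221, -0.778, -0.379, -0.156 and 0.593 kb. The 4 upstream ones belong to 1 called peak with 5 kept summits and span the start of Lrrc41, 0.198 kb away on the other strand.

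All 11 common complex IV subunits had a window, and 10 of them had exactly 1. These were Cox4i1, Cox5a, Cox5b, Cox6a1, Cox6b1, Cox6c, Cox7a2, Cox7b, Cox7c and Cox8a, with closest summits between -0.086 kb (Cox4i1) and 0.106 kb (Cox7b). Cox7a2l, a relative of Cox7a2 that helps form supercomplexes, had 2 windows at 89 and -160 bp. The class held 12 windows at 11 genes.

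In ATP synthase, 14 of 15 genes had a window (93.3%, interval 68.1% to 99.8%). All 5 genes of the catalytic head and central stalk had one: Atp5b, Atp5c1 and Atp5e with 1, Atp5a1 with 3 and Atp5d with 5. The Atp5a1 windows lay at -0.130, 0.082 and 0.337 kb within 1 called peak. Atp5d has 4 annotated start sites, and its 5 windows lay at -0.888, -0.022, 0.081, 0.355 and 0.761 kb from the closest of them, with Dos 16 bp away on the other strand. In the peripheral stalk, which holds the head still, Atp5h and Atp5o had 1 window and Atp5j had 4, while Atp5f1 had none. The 4 Atp5j windows, from 1 called peak, were all shared with Gabpa, whose start site lies 31 bp from one of Atp5j in an overlapping arrangement and which encodes the DNA-binding subunit of GABP. The 3 genes of the membrane ring all had windows, with closest summits of -50 bp for Atp5g3, -239 bp for Atp5g1 and -825 bp for Atp5g2. Atp5k, Atp5l and Atp5j2, further membrane subunits, had 1, 1 and 2.

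**Figure D2:**
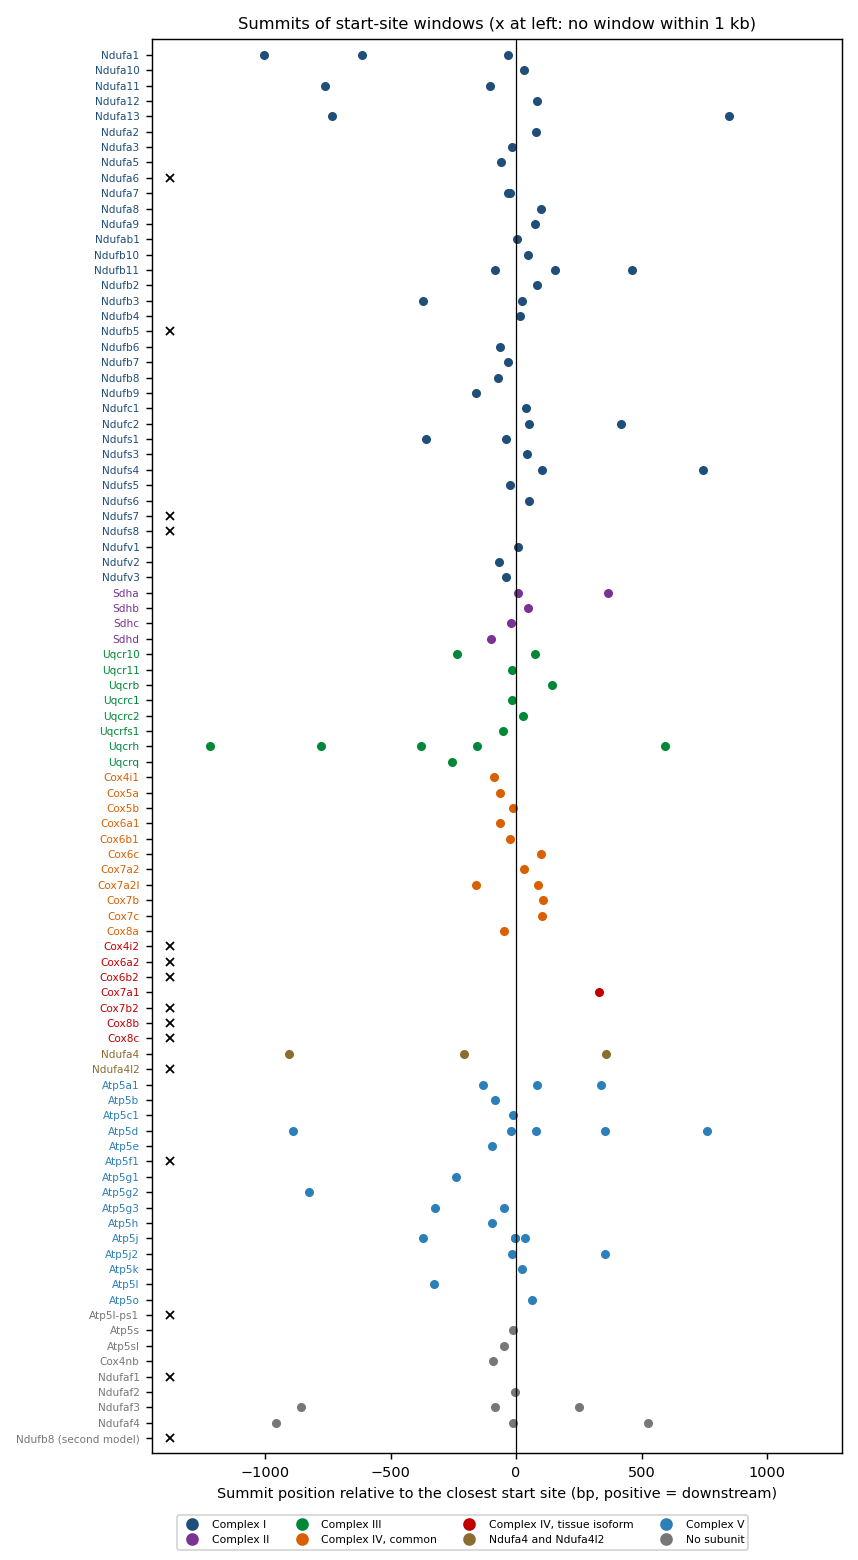
Position of each start-site window's summit relative to the closest start site (x axis, bp, positive downstream) for 91 of the 92 members (rows), coloured by class. Points are summits and crosses at the left mark the 15 members with no window within 1 kb; most points lie within 100 bp of the start site, and 6 of the 7 complex IV tissue isoforms carry a cross.

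Among the members with a window, the closest summit lay at a median of -15 bp, with a range from -825 to 330 bp, and at -28 bp over all genes with a window. It was within 100 bp of a start site at 63 of 77 members (81.8%), against 66.7% of all genes with a window. The farthest were Atp5g2 at -825 bp (chr15:102502053-102502552) and Ndufa13 at -734 bp, where Tssk6 starts 0.374 kb inside Ndufa13 on the other strand. Then followed Cox7a1 at 330, Atp5l at -326, Uqcrq at -254 and Atp5g1 at -239 bp. For Atp5g2 the annotation has 1 start site only. Among members with no start-site window, the closest summits were those of Ndufa4l2 at -1958 and Cox8b at -2031 bp.

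Members carried few windows each. Of the 77 with a window, 21 had 2 or more (27.3%), against 51.0% of all genes with a window, and 56 had exactly 1. Cox4i1 and Cox4nb share their window. A further window 1 to 10 kb away was listed for 38 of the 77 (49.4%), against 46.8% of all genes with a window. On X, where 39.9% of genes had a start-site window, Ndufa1, Ndufb11 and Cox7b all had one.

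Among common subunits, 5 had no window. Ndufa6 was 8284 bp from the closest summit, Ndufb5 28451 bp, Ndufs7 7795 bp, Ndufs8 7253 bp and Atp5f1 20813 bp. Those summits lay at other genes, for example 7 bp from the start of 1500032L24Rik beside Ndufa6 and 7 bp from that of Actl6a beside Ndufb5. None of the 5 had a window inside the gene. At all but Ndufs8 at least 1 start site met the CpG island criterion given further on. The 31-base words of the 500 bp centred on the outermost start site were searched in mm9, and other start sites were not examined. The share that occur only at that place was 98.9% for Ndufa6, 100% for Ndufb5 and Ndufs8, 91.3% for Atp5f1 and 80.2% for Ndufs7. The part of such repeated words in the lack of a window was not tested. Ndufb5 and Atp5f1 share their start region with Mrpl47 and Wdr77, at 20 and 93 bp, and no window covers those starts.

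Of the 9 genes that match by name but encode no subunit, the complex I assembly factors Ndufaf2, Ndufaf3 and Ndufaf4 had 1, 3 and 3 windows. Ndufaf1, a further assembly factor of complex I, had none, and its closest summit was 12134 bp away. Cox4nb, Atp5s and Atp5sl had 1 each. The remaining genes were Atp5l-ps1, a gene named as a pseudogene but typed protein-coding, at 56184 bp from a summit, and another model named Ndufb8 (ENSMUSG00000091471), whose closest summit, 2681 bp upstream, is the one at the start of the main Ndufb8 gene.

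Tissue isoforms and their partners differed in the list. All 7 partners had a window, and 1 of the 8 isoforms had (12.5%, interval 0.316% to 52.7%), against 52.9% of all genes. All 8 isoforms lacked a CpG island by the criterion given further on. Of all genes with no island 22.3% had a window, a share inside the interval of the isoforms. The muscle isoforms come first. The closest summit to Cox6a2 was 30997 bp away, while Cox6a1 had its summit at -63 bp. Cox8b had 1 window 2031 bp upstream and none closer, against a summit at -48 bp for Cox8a. Cox7a1 was the exception, with 1 window at 330 bp inside the gene (chr7:30969270-30969769), against 32 bp for Cox7a2. Cox7a1 and Cox8b are also used in brown fat. The start-site windows of muscle markers were 0 of 4 (Myh4, Ckm, Acta1, Myl1, with 3 windows inside Ckm), and of the brown fat markers Ucp1 had none and Cidea had 1 at -267 bp. The interval for the muscle list ran from 0% to 60.2%. None of the 4 muscle markers had an island, so their count also stands beside the 22.3% of all genes with no island. The part of other cell types in the Cox7a1 window was not tested.

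The testis isoforms had no window in reach. The closest summit was 11815 bp from Cox6b2, 20774 bp from Cox8c and 109825 bp from Cox7b2, against 0.026 kb for Cox6b1, 0.048 kb for Cox8a and 0.106 kb for Cox7b. Start-site windows of the testis markers Prm1, Tnp1 and Ldhc were 0 of 3 (interval 0% to 70.8%), and none of the 3 had an island. Cox4i2, the isoform of lung and low oxygen, had no start-site window but 2 windows inside the gene, at 3574 and 4326 bp from its outermost start site. Cox4i1 had 1 at -86 bp. Ndufa4l2 had no start-site window but 4 windows upstream, at -1958, -5316, -5878 and -6378 bp, and all but the one at -1958 bp lie closer to the start of Stac3. Ndufa4, first named for complex I and now placed in complex IV, had 3 at -0.903, -0.209 and 0.360 kb, and Phf14 starts 0.363 kb away on the other strand. With a limit of 2500 bp in place of 1 kb, 4 of the 8 isoforms had a window.

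**Figure D3:**
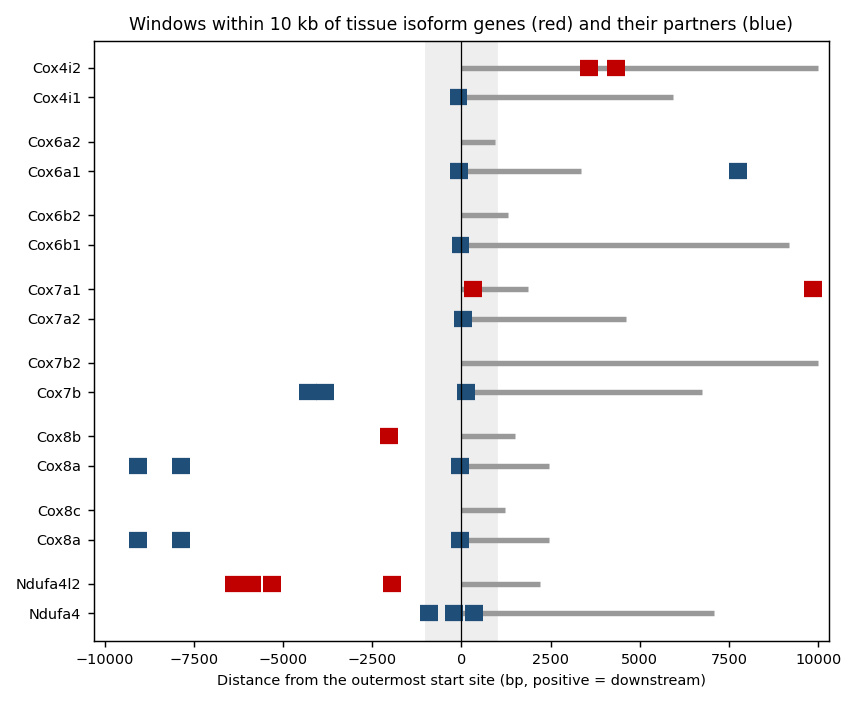
Windows (blocks of 500 bp, to scale) within 10 kb of the outermost start site (x axis, bp, positive downstream) of each isoform (red) above its partner (blue); grey lines are the genes, cut at 10 kb, and the shaded band is the 1 kb on either side. Each partner has a block on or beside the start site, Cox7a1 alone of the isoforms has a block in the band, and Cox4i2, Cox8b and Ndufa4l2 have blocks outside it.

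CpG content differed along with the windows. A start site was counted as a CpG island where the surrounding 1000 bp had an observed to expected CpG ratio of at least 0.6 and a GC content of at least 50%. At least 1 such start site was present at 73 of 92 members (79.3%), against 49.0% of all genes. Of the island members 68 of 73 had a window (93.2%, interval 84.7% to 97.7%), against 84.7% of all island genes. Of the members with no island 9 of 19 had one (47.4%, interval 24.4% to 71.1%), against 22.3% of all genes with no island.

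All 8 isoforms lacked an island, with ratios at the outermost start site from 0.18 (Ndufa4l2) to 0.47 (Cox7b2). Among the partners, Cox6b1 (0.78, with a GC content of 49.2%) and Cox7b (0.48) also lacked one, and both had a window. The 9 common subunits with no island were Ndufa3, Ndufb10, Ndufs5, Ndufs8, Uqcr11, Uqcrb, Cox6b1, Cox7b and Atp5j2, and all but Ndufs8 had a window (88.9%, interval 51.8% to 99.7%). With no island in either group, 1 of 8 isoforms had a window (12.5%, interval 0.316% to 52.7%), against these 8 of 9 common subunits. Over all genes with no island the share was 22.3%, inside the interval of the isoforms. The groups were not matched on CpG content. Of these common subunits only Atp5j2, with a ratio of 0.22 at the outermost start site, lay in the range of the isoforms. The others ran from 0.48 (Cox7b) to 0.78 (Cox6b1). The part of CpG content in the contrast was not tested.

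**Figure D4:**
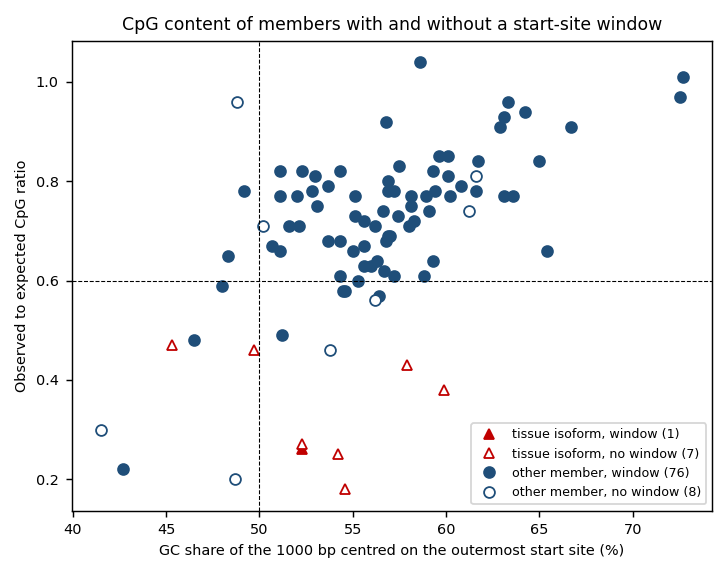
GC content (x axis, percent) and observed to expected CpG ratio (y axis) of the 1000 bp around the outermost start site of each member. Filled symbols have a start-site window and open ones have none, triangles are the 8 isoforms and circles the other 84 members; dashed lines are the island limits of 50% and 0.6, and every triangle lies below 0.6.

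Shared promoters were common. Another gene started on the opposite strand within 1 kb of 31 of 92 members (33.7%, interval 24.2% to 44.3%), against 12.0% of all genes. Of the 31, 28 were head to head, an arrangement also usual over all genes, at 2111 of the 2678 with such a neighbour. A window was present at 29 of the 31, against 86.0% of all genes with such a neighbour, the exceptions being Ndufb5 and Atp5f1. The closest pairs were Ndufs1 with Eef1b2 and Ndufb11 with Rbm10, at 3 bp each. Atp5d with Dos at 16 bp and Ndufb5 with Mrpl47 at 20 bp followed, and then Ndufa7 with Rps28 and Sdha with Ccdc127 at 29 bp each. Eef1b2 is a translation elongation factor, Rbm10 an RNA-binding splicing regulator and Rps28 a ribosomal protein. No isoform was among the 31.

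Motif letters were searched on both strands in the start-site windows of the 77 members and of the 11819 genes with a window. NRF1 was searched as GCGCATGC, ETS as CCGGAAG, YY1 as AAGATGGC, SP/KLF as GGGGCGGG, ERR as TCAAGGTCA, the HIF core as ACGTG, CREB as TGACGTCA and the E-box as CACGTG, which contains the HIF core. A match describes the letters only.

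YY1 letters were present at 19 members (24.7%, interval 15.6% to 35.8%), against 9.44% of all genes with a window. NRF1 letters were present at 11 (14.3%, interval 7.35% to 24.1%), against 8.00%, and ETS letters at 27 (35.1%), against 29.4%. ERR letters were rare, at 4 members (5.19%, interval 1.43% to 12.8%) and 0.931% of all genes. CREB letters were found at 6 members (7.79%), against 4.79%. In the other direction, SP/KLF letters were present at 25 members (32.5%, interval 22.2% to 44.1%), against 49.5% of all genes with a window. The HIF core was present at 36 members (46.8%), against 51.1%, and the E-box at 12 (15.6%), against 20.7%. The intervals of the NRF1, ETS, HIF core, CREB and E-box shares include the value for all genes. For NRF1 this did not hold in the central 200 bp of the windows or in the closest window only, where the members again had 14.3%, against 5.20% and 6.39% of all genes, both below the interval of 7.35% to 24.1%. All these shares count genes, and members had fewer windows each to search. Counted per distinct start-site window, the HIF core was in 36.0% at members, against 35.9% over all genes. The E-box was in 10.8%, against 12.5%, and SP/KLF letters in 25.2%, against 32.7%. ETS letters were in 26.1%, against 16.7%, YY1 in 19.8%, against 5.27%, and NRF1 in 9.91%, against 4.42%. CREB letters were in 6.31%, against 2.69%, and ERR in 3.60%, against 0.554%.

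**Figure D5:**
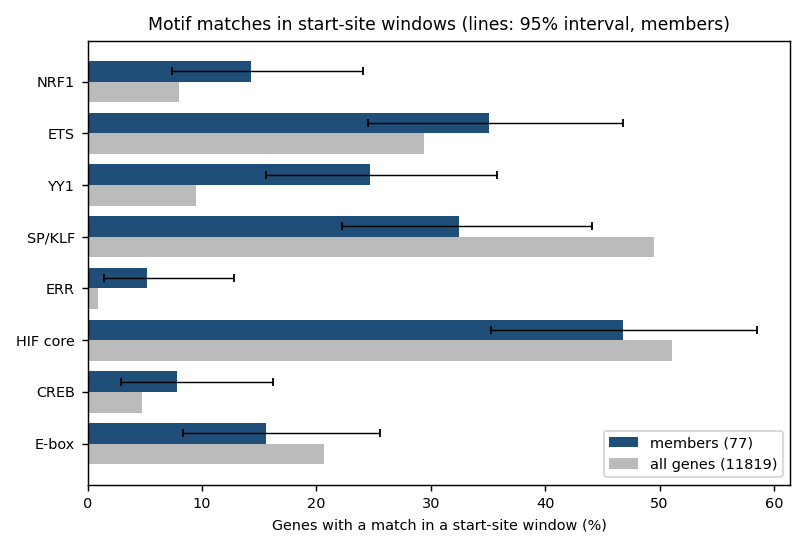
Share of genes with at least 1 match in their start-site windows (x axis, percent) for 8 motifs (rows), for the 77 members with a window (blue, with exact 95% interval) above all 11819 genes with a window (grey). The blue bars are longer than the grey ones for NRF1, ETS, YY1, ERR and CREB and shorter for SP/KLF, HIF core and E-box.

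The YY1 letters include ATG, and at the members they mostly lay on the start of the coding sequence. Of the 20 YY1 matches at members 14 read in the direction of the gene (70.0%), against 63.8% of 1192 matches over all genes with a window. In 13 of the 14 at members the ATG was the annotated start codon (92.9%). Over all genes with a window the ATG was the annotated start codon in 42.9% of the 760 matches that read in the direction of the gene. A start codon inside YY1 letters was thus found at 13 of 77 members (16.9%), against 2.76% of all genes with a window. The letters at 11 of these genes are shown, since they place the match on the codon, each with 10 bases on either side, in the direction of the gene, with the YY1 letters in capitals.
Ndufa3: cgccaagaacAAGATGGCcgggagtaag
Ndufa9: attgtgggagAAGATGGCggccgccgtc
Ndufb8: ggagaaggtgAAGATGGCtgccgcccgg
Ndufc1: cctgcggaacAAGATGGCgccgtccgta
Ndufs4: tgcctacaggAAGATGGCggcggtctca
Ndufs6: ggtcaccggcAAGATGGCggcggtgctg
Sdhc: gccggaactcAAGATGGCtgcgttcttg
Uqcrc1: cggaagttagAAGATGGCggcgtccgca
Atp5j2: ccaggacttcAAGATGGCgtcactcggt
Atp5o: cgcccgggaaAAGATGGCcgcgcctgca
Atp5sl: gttacctggcAAGATGGCggcgcccaga
At these 11 genes the match lay between -4 and 58 bp from the closest start site. The exception among forward matches was Atp5j. At Uqcrh, Cox8a, Atp5a1, Atp5d and Atp5h the letters read against the gene.

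Start codons lay close to the start sites. The smallest genomic distance from a start site to an annotated start codon had a median of 0.061 kb at the 77 members (quartiles 0.028 and 0.123 kb), against 0.107 kb (quartiles 0.029 and 0.492 kb) at the 11667 genes with a window and an annotated codon. It was at most 100 bp at 53 members (68.8%), against 48.4%. The start codon lay inside a start-site window at 61 of 77 members (79.2%), against 47.9%.

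NRF1 letters, named for the factor that regulates many respiratory genes, lay close to the start site at most members that had them. Of 12 matches 8 were within 100 bp, and the share over all genes was not computed. Only start-site windows were searched, and the closest summit lay within 100 bp at 81.8% of members with a window. The closeness therefore cannot be read as a trait of the letters. The matches of 6 subunit genes, Ndufa8, Sdhb, Uqcr11, Uqcrc1, Cox6c and Atp5k, are printed with 10 bases on either side, in the direction of the gene, with the NRF1 letters in capitals.
Ndufa8: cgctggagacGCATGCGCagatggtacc
Sdhb: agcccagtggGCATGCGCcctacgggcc
Uqcr11: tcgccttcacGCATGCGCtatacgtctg
Uqcrc1: actccgctctGCGCATGCgcagcgcggc
Cox6c: atcgactcttGCGCATGCgtgctgctgg
Atp5k: tcactgcggcGCATGCGCctttctggct
Ndufa11, Ndufa13, Cox6a1, Atp5l and Ndufaf4 also had NRF1 letters, and that of Ndufa13, at -777 bp, lay farthest from the start site. Uqcrc1 alone held both NRF1 and YY1 letters, at -29 and 9 bp.

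ERR letters, bound by the oestrogen-related receptors that control oxidative metabolism, were found at Ndufa2, Sdhd, Atp5g3 and Atp5j2. The last 3 are printed in the same way with the ERR letters in capitals, since so few genes have them.
Sdhd: ggttgtagagTGACCTTGAgccctcgaaa
Atp5g3: tgttacaaagTGACCTTGAgcgtcttccc
Atp5j2: agtgacctgtTCAAGGTCAccagtcctga
The offsets were 0.040 kb for Sdhd, -0.048 kb for Atp5g3 and 0.526 kb for Atp5j2. Neither Cox7a1, the isoform with a window, nor its partner Cox7a2 held any of the 8 motifs in its start-site window. The same was true of other members, among them Ndufa4, Ndufa12, Uqcr10, Cox7b, Cox7c and Atp5g2.

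In the other lists of the pathway the share with a start-site window ran from 62.5% to 92.3%, against 52.9% of all genes and 84.7% of all genes with an island. Of 25 assembly factors, 20 of them with an island, 23 had a window (92.0%), and those without were Surf1 and Sco2, both needed for complex IV. Of 13 citrate cycle enzymes 12 had one. Of 16 regulators of mitochondrial genes 14 had one, including Nrf1 with 1, Gabpa with 4, Yy1 with 3, Esrra with 1 and the mitochondrial transcription factor Tfam with 1. Gabpb2 and Esrrb had none. Of 8 electron carriers and related proteins 5 had one (62.5%, interval 24.5% to 91.5%). Cyc1, the cytochrome c1 of complex III, had its summit at -77 bp, while Cycs and Cyct, the somatic and testis cytochromes c, and Etfdh had none.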

How the data were processed

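Per the study's methods and the processing notes, the authors trimmed paired reads, aligned them to mm9 with Bowtie2 2.1.0, and removed low-quality reads, duplicates (Picard 1.79) and mitochondrial reads. MACS2, of a version the sources used here do not give, called summits at a q-value of 0.05 on aggregated single cells, and the authors kept the best 50000, widened to 500 bp. The deposited rows stem from 38400 called peaks and hold positions and names, with no score, count or depth. The sources do not say if the wells stained for CD45 were among the cells aggregated. Fixed cells were transposed in bulk before sorting. The sources differ on the sort: the methods state no selection by staining, while other parts describe cells collected as positive for EpCAM or CD45.

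Windows were read as 1-based intervals with the summit at the centre. Start sites were the 70018 transcript starts of protein-coding genes in GENCODE M1 on the matching mm9 genome. A gene had a start-site window where the nearest base of a window lay within 1000 bp. Members, isoform pairs, pathway lists, markers and motifs were chosen with earlier results of these data known. The text gives values in full for members with no window, isoforms and partners, Sdh genes, up to 4 members with most windows per complex and members with the farthest summits. The YY1 comparison with start codons was added after the motif matches were seen. Gene names were matched to RefSeq synonyms where needed, which found Timmdc1. Sequences were read from mm9. Scripts ran in Python 3.11.15 with scipy 1.17.1 and matplotlib 3.10.9, and the window search was tested on simulated windows. With 1 pooled list and no replicates, no test was run. Single results for 3 genes are not reported here, although those genes stay in the counts.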

Additional observations from a re-analysis of the deposited data

How the results depend on the processing

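Recomputed under other settings, 85 values stayed within 1.5 times the reported one and 19 did not. Limits of 500 bp and 2500 bp gave 76 and 81 members with a start-site window in place of 77, and a summit limit, the outermost start site, protein-coding transcripts only and merged windows each gave 77. With 2500 bp, 4 isoforms had a window (3 of complex IV), and so did 2 of the Ndufa4 pair. The strict list of called peaks with 2 or more kept summits left 17 members (18.5%, against 22.1% of all genes, with no interval computed). These were 6 of complex I, 1 of complex II, 2 of complex III and 4 of complex V. Also left were 1 common and 0 isoform genes of complex IV, 2 of the genes that encode no subunit, and 1 partner. A CpG limit of 0.75 and 55% left 37 island members, while 29.6% of all genes met it. Of the 37, 34 had a window, against 87.6% of all genes that met it. In the central 200 bp of the windows, where less sequence was searched, ERR letters remained at 1 member (1.30%, against 0.237% of all genes with a window). The HIF core remained at 17 (22.1%, against 28.9%), CREB at 3 (3.90%, against 2.94%) and E-box at 5 (6.49%, against 11.0%). With the closest window only, added after seeing the data, YY1 letters were present at 18 members (23.4%, against 7.18% of all genes with a window), NRF1 at 11 (14.3%, against 6.39%) and SP/KLF at 19 (24.7%, against 41.0%). No paired analysis was possible because the list pools all cells. The unscored list and unknown depth limit every count, and absence from the list is no measure of closed chromatin.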
